A study of Mus musculus with 9 samples.

Results

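The genes described here are 8 genes of the lung epithelium, namely Sftpc, Sftpb, Sftpa1, Sftpd, Cldn18, Scgb1a1, Ager and Epcam, measured in fibroblasts sorted from lungs of mice in an early stage of metastasis. They are 8 of the 55302 gene symbols measured. They were chosen by name with their normalized counts in PBS replicate 4, in PBS replicates 1 to 3 and in the doxorubicin libraries already known, so that the levels below are a description and carry no test. The data are 9 bulk RNA-seq libraries, each labelled as a separate biological replicate, 4 from mice given the vehicle PBS, which one label calls Saline, and 5 from mice given the anthracycline doxorubicin (DOX), which breaks DNA. All mice of both groups were females that had carried a breast tumor in the mammary fat pad from the age of 8 weeks, and the tumor was removed 2 weeks after the cells were injected. Treatment began 4 days after surgery with 2 doses given 5 days apart, DOX at 5 mg/kg, and lungs were taken 24 h after the second dose. The study used 4T1 tumors in BALB/c mice and EO771 tumors in C57BL/6 mice, and the sources used here do not say which of these gave the libraries. Methods give the sorted cells as negative for CD45, EpCAM and CD31 and positive for PDGFRα, whereas the labels leave out CD31.

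Pulmonary surfactant is the film of lipid and protein that lowers surface tension in the alveoli. Alveolar type 2 cells make it, store it in lamellar bodies and secrete it. Sftpc and Sftpb encode its small hydrophobic proteins, while Sftpa1 and Sftpd encode collectins, which bind sugars on microbes. Alveolar type 1 cells are the thin cells of gas exchange, and club cells are secretory cells of the airways. Fibroblasts are not known as a source of surfactant proteins, and the gate was set to leave out EpCAM-positive epithelium.

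Values are normalized counts, in which the read count of a gene is divided by a size factor of its library. The libraries held 432322 to 1285816 reads, of which 0.00229 to 0.0812% were reads of the 8 genes. A gene with 0 reads may have had up to 3 reads, or 1.54 to 5.81 normalized counts depending on the library, and intervals given here cover counting error only. They take each read as independent. Whether molecular tags were collapsed is not given, so that the intervals may be too narrow. All 12 listed fibroblast genes were above 0, led by Col1a1, a chain of type I collagen, at 1027 to 2333. Pdgfra, whose protein set the positive gate, was at 0.810 to 12.0. PBS replicate 4 stood apart from the other 8 libraries. There the 14 granulocyte genes summed to 1125 against 0 to 28.2 elsewhere, and the 12 fibroblast genes to 1944 against 2744 to 3868. The comparisons of DOX with PBS are therefore given with and without it for each gene described by its fold change. In DOX replicate 2 the ribosomal RNA gene CT010467.1 held 35.3% of the summed values, against 5.74 to 16.8% in the others.

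Sftpc and Sftpb were lowest in PBS replicates 1 to 3, intermediate in the DOX libraries and highest in PBS replicate 4, whereas Sftpa1 and Sftpd were highest in PBS replicate 4 but overlapped between DOX and PBS replicates 1 to 3. Sftpc, which encodes surfactant protein C, is on chromosome 14 of mm10 (70520949 to 70524081, minus strand). It was at 8.99, 4.22 and 12.6 normalized counts in PBS replicates 1 to 3, at 210 in PBS replicate 4, and at 12.99, 36.8, 75.6, 85.2 and 84.0 in DOX replicates 1 to 5. Every DOX library lay above PBS replicates 1 to 3 and below PBS replicate 4. The 5 DOX libraries averaged 58.9 ± 32.4 (SD, n = 5), which is 6.84 times the 8.61 ± 4.21 (SD, n = 3) of PBS replicates 1 to 3. With PBS replicate 4 included the PBS mean was also 58.9, with an SD of 101 (n = 4). The difference of mean log2(normalized count + 1), DOX minus PBS, was 1.33 with all libraries and 2.47 without PBS replicate 4. The gap at the edge of the groups was narrow. DOX replicate 1 had 14 reads (exact Poisson 95% interval 7.10 to 21.8 normalized counts) and PBS replicate 3 had 10 reads (6.05 to 23.2), so that these neighbours did not differ beyond counting error. PBS replicate 4, with 259 reads (185 to 237), lay 2.46 times above the next library, DOX replicate 4 (70.2 to 102), and their intervals did not meet. In these bulk samples, fewer cells of a type and less RNA per cell cannot be told apart.

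Sftpb, the gene of surfactant protein B, which is needed to form lamellar bodies, is on chromosome 6 (72304610 to 72314371, plus strand). It was at 0, 3.17 and 2.52 normalized counts in PBS replicates 1 to 3, at 126 in PBS replicate 4, and at 3.71, 46.5, 26.6, 20.2 and 27.7 in DOX replicates 1 to 5. As for Sftpc, all 5 DOX libraries lay above PBS replicates 1 to 3 and below PBS replicate 4. The 3 low PBS libraries rested on 5 reads in all, and DOX replicate 1 on 4, so that this order at the low end was within counting error. DOX averaged 24.9 ± 15.4 (SD, n = 5) against 32.8 ± 61.9 (SD, n = 4) in PBS. Thus the linear mean was lower in DOX, whereas the difference of mean log2 values was 1.65 in favor of DOX, and 3.07 without PBS replicate 4. Of the 8 genes, Sftpc and Sftpb were the 2 with every DOX library above PBS replicates 1 to 3. Of the 2604 genes that passed a filter on low values (4 or more libraries at 10 or above), 3.38% had this order. With 1 DOX library allowed to fall lower, Cldn18 joined them, making 3 of the 8 genes against 9.06% of tested genes.

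The collectin genes were close to the limit of detection. Sftpa1 (surfactant protein A, chromosome 14, 41131782 to 41136452, plus strand) was at 3.00, 0 and 0 in PBS replicates 1 to 3, at 17.8 in PBS replicate 4, and at 0.928, 0, 3.06, 2.24 and 11.8 in DOX replicates 1 to 5. Of its 55 reads, 22 were in PBS replicate 4 and 23 in DOX replicate 5, so that 2 libraries held most of the signal and the groups overlapped. Sftpd (surfactant protein D, chromosome 14, 41172214 to 41185149, minus strand) had 9 reads in all. It was at 0 in PBS replicates 1 to 3 and in DOX replicates 1 to 3, at 3.24 in PBS replicate 4, 2.99 in DOX replicate 4 and 0.512 in DOX replicate 5. At this depth no difference in Sftpd between DOX and PBS was detectable.

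**Figure D1:**
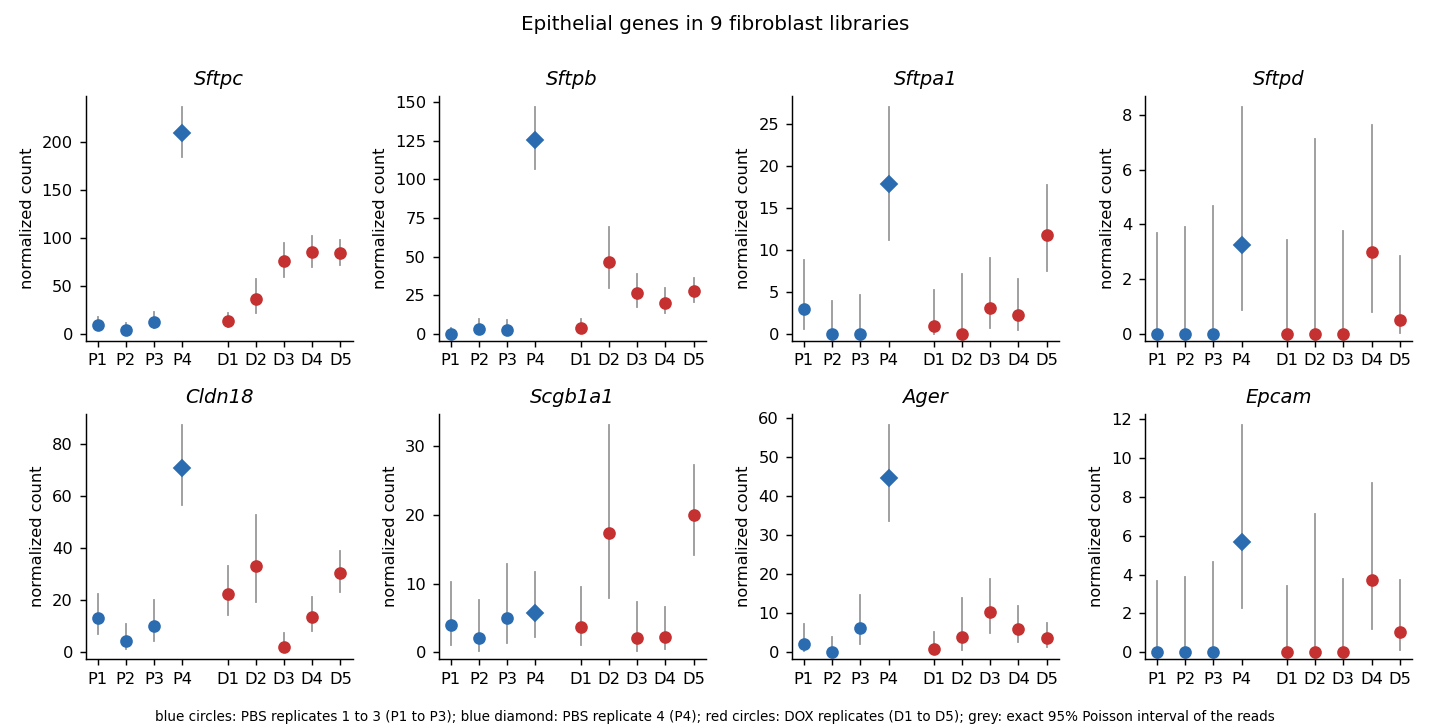
Normalized count (vertical axis, linear, own range for each gene) of the 8 epithelial genes by library. Blue marks PBS (a diamond for replicate 4), red marks DOX. Grey lines are exact 95% Poisson intervals of the reads, and PBS replicate 4 is the highest library in every panel but that of Scgb1a1.

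The promoters of Sftpb and Sftpa1, the surfactant genes for which a window was found, are shown as a description. Their letters were not compared with levels. Promoter windows of 300 bases, from 250 before to 50 after the start site (RefSeq, GRCm38.p6), were found for 5 of the 8 genes, with a pair of windows for Cldn18. None was found for Sftpc, Sftpd or Scgb1a1. Both windows printed here contain CTCAAG, the core letters of sites bound by NKX2-1, a homeobox factor of lung epithelium. Capitals mark CTCAAG and, in Sftpa1, also TATAAA, the letters of a TATA box. The Sftpb window is chr6:72304360-72304659 and that of Sftpa1 is chr14:41131538-41131837, both on the plus strand.
Sftpb: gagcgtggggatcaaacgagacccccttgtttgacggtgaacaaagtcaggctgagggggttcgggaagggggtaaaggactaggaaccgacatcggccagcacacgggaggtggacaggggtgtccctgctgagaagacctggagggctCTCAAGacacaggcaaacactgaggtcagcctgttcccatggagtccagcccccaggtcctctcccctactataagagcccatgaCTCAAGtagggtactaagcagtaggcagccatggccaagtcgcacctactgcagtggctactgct
Sftpa1: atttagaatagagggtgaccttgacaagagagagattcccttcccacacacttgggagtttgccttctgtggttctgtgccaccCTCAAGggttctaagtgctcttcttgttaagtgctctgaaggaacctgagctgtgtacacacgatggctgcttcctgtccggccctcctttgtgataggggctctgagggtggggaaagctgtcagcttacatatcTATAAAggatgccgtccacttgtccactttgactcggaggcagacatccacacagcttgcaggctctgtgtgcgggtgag
In Sftpb the core begins at positions -100 and -15 from the start site, and in Sftpa1 at -166, with TATAAA at -30. Searched on both strands, CTCAAG was in 2 of the 6 windows of these genes and in 15.9% of 32851 windows of all genes, and TATAAA in 1 of 6 and 13.6%. The letters TGTTTAC, a core of FOXA sites, were in 0 of 6 windows and 3.65% of all. A match of letters is a description and not a binding site.

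Claudin 18, a tight junction protein of the alveolar epithelium, followed another order within the DOX group than Sftpc did. Cldn18 (chromosome 9, 99689461 to 99717267, minus strand) was at 12.99, 4.22 and 10.1 in PBS replicates 1 to 3, at 70.5 in PBS replicate 4, and at 22.3, 32.9, 2.04, 13.4 and 30.2 in DOX replicates 1 to 5. DOX replicate 3 was the lowest of all 9 libraries for Cldn18 while it was among the 3 highest DOX libraries for Sftpc, and DOX replicate 1 was the lowest DOX library for Sftpc but not for Cldn18. The DOX mean was 20.2 ± 12.7 (SD, n = 5) against 9.10 ± 4.47 (SD, n = 3) in PBS replicates 1 to 3 and 24.4 ± 30.9 (SD, n = 4) in all PBS libraries. On the log2 scale DOX minus PBS was 0.05, and 0.79 without PBS replicate 4. PBS replicate 4 was 2.14 times the next library.

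Ager encodes the receptor for advanced glycation end products, which in the lung is abundant on alveolar type 1 cells (chromosome 17, 34597862 to 34600936, plus strand). Its values were 2.00, 0 and 6.31 in PBS replicates 1 to 3, 44.6 in PBS replicate 4, and 0.928, 3.87, 10.2, 5.98 and 3.59 in DOX replicates 1 to 5. PBS replicate 4 was 4.36 times the next library, the widest such gap among the 8 genes, while the DOX libraries overlapped PBS replicates 1 to 3. The DOX mean of 4.91 ± 3.46 (SD, n = 5) and the mean of PBS replicates 1 to 3, 2.77 ± 3.23 (SD, n = 3), lay within each other's spread. The end of Ager lies 155 bases from Rnf5 on the other strand, which was at 0 to 24.3 and also highest in PBS replicate 4.

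Scgb1a1, the secretoglobin of club cells, was the exception among the 8 genes. Located on chromosome 19 (9083636 to 9087958, minus strand), it was at 4.00, 2.11 and 5.05 in PBS replicates 1 to 3, at 5.67 in PBS replicate 4, and at 3.71, 17.4, 2.04, 2.24 and 20.0 in DOX replicates 1 to 5. PBS replicate 4 lay below DOX replicates 2 and 5, within the range that counting error gives the other PBS libraries. Its DOX mean of 9.08 ± 8.85 (SD, n = 5) was above the mean of all 4 PBS libraries, 4.21 ± 1.56 (SD, n = 4), which held for 1 of the 8 genes, but the other 3 DOX libraries, at 2.04 to 3.71, did not exceed the highest PBS library.

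Epcam encodes the adhesion molecule by which epithelium was gated out (chromosome 17, 87635979 to 87651129, plus strand). No read of it was found in PBS replicates 1 to 3 or in DOX replicates 1 to 3, which allows up to 2.78 to 5.81 normalized counts. PBS replicate 4 had 7 reads (5.67 normalized counts), DOX replicate 4 had 5 (3.73) and DOX replicate 5 had 2 (1.02). The libraries with Epcam reads were thus the same 3 libraries that had Sftpd reads. They were also the 3 with the most reads in total, 734114, 887830 and 1285816, against 432322 to 691945 in the others. The part of depth in where these few reads were found was not tested.

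Over the 8 genes, PBS replicate 4 was the highest library for 7, all but Scgb1a1, where 14.8% of the 2604 tested genes had that order. It was at least 2 times the next library for 4, Sftpc, Sftpb, Cldn18 and Ager, against 2.73% of tested genes. The DOX mean was above the mean of PBS replicates 1 to 3 for 8 of the 8 genes, against 54.3% of tested genes, and at least 2 times that mean for all but Ager, 7 of the 8, against 9.49%. For Sftpd and Epcam, PBS replicates 1 to 3 were at 0, so that no fold can be given, and for Sftpa1 they held 3 reads. Because the genes were chosen with these values known, the counts describe the choice. The shares are also over genes that passed the filter on low values, which 5 of the 8 did not, so that the sets are unlike. Over all genes above 0 in any library, 16.3% were highest in PBS replicate 4. None of the 8 genes had every DOX library above every PBS library, an order found in 1.27% of tested genes. Summed over the 8 genes, PBS replicates 1 to 3 were at 31.0, 13.7 and 36.6 normalized counts, PBS replicate 4 at 483, and DOX replicates 1 to 5 at 44.5, 137, 120, 136 and 179. The DOX mean of this sum was 123 ± 49.1 (SD, n = 5), which was 4.55 times the mean of PBS replicates 1 to 3 (27.1 ± 11.9, SD, n = 3) and below the mean of all PBS libraries (141 ± 228, SD, n = 4). Only 3 of the 8 genes, Sftpc, Sftpb and Cldn18, passed the filter on low values, and for Sftpb 4 of the 5 libraries at 10 or more were DOX libraries, the other being PBS replicate 4.

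The proportions among the genes differed between libraries beyond counting error, if each read is taken as independent. Because it is not given whether molecular tags were collapsed, the intervals below may be too narrow. Sftpb made up 37.4% of the 414 Sftpb and Sftpc reads of PBS replicate 4 (exact Clopper-Pearson 95% interval 32.8 to 42.3%). In DOX replicates 4 and 5 its share was 19.1% (13.01 to 26.6%) and 24.8% (19.2 to 31.1%), both below that of PBS replicate 4, and in DOX replicate 2 it was 55.8% (39.9 to 70.9%). The shares of PBS replicates 1 to 3, on 7 to 12 reads, had intervals of 0 to 81.6% together and set no order. Cldn18, in its share of the Cldn18 and Sftpc reads, ranged further, a comparison added after the values were seen. It held 63.2% (46.0 to 78.2%) in DOX replicate 1 and 2.63% (0.320 to 9.18%) in DOX replicate 3, against 25.1% (20.7 to 30.1%) in PBS replicate 4. DOX libraries with similar summed levels thus had different mixtures of the 8 genes.

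**Figure D2:**
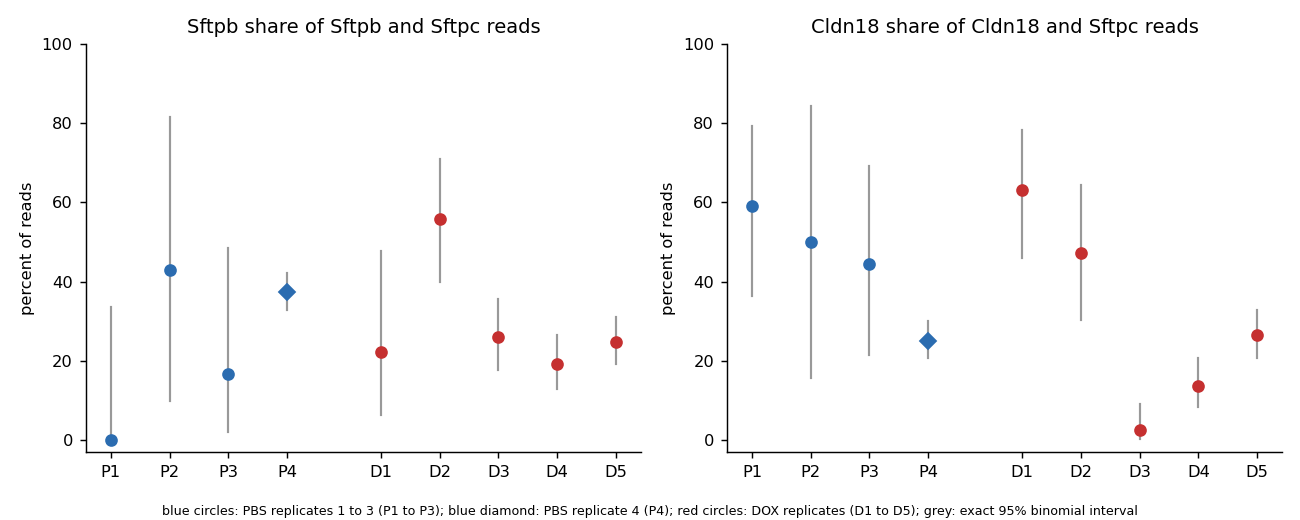
Share, in percent of reads, of Sftpb among Sftpb and Sftpc reads (left) and of Cldn18 among Cldn18 and Sftpc reads (right) in each library, with exact 95% binomial intervals as grey lines. PBS replicates 1 to 4 are blue (replicate 4 a diamond) and DOX replicates red, and the Cldn18 share runs from 2.63% in DOX replicate 3 to 63.2% in DOX replicate 1.

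Other epithelial genes were tested in the fit over all genes, and none of them passed between DOX and PBS. Of 57 further genes of alveolar type 2, alveolar type 1, airway and general epithelium, 12 were at 0 in all libraries, 45 were above 0 in at least 1, and 7 passed the filter. By limma on log2(normalized count + 1), 0 of the 7 passed an adjusted p of 0.05 and 0 had an unadjusted p under 0.05 (edgeR 0 and 0; DESeq2 0 and 1, among 45 genes). Of all 2604 tested genes 0% passed, and 6.22% had an unadjusted p under 0.05. Of the 7, 4 had a higher fitted mean in DOX and 3 a lower one, and the median log2 fold change was 0.34 against -0.01 over all tested genes. Without PBS replicate 4 this median was -0.19, and 1 of 7 had an unadjusted p under 0.05 by limma. The count was also 1 of 7 without DOX replicate 3. Over all tested genes these counts were 194 of 2447 and 159 of 2435, and 0 passed in either.

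Alveolar type 2 genes other than the 8 were thinly measured. Of the 17 in the files, 3 (Lamp3, Lyz1 and Nkx2-1) were at 0 in all 9 libraries and 14 were above 0 in at least 1. Napsa was at 4.05 in PBS replicate 4, 2.99 in DOX replicate 4, 2.56 in DOX replicate 5 and 0 elsewhere. Slc34a2 was at 4.09 in DOX replicate 3, 1.49 in DOX replicate 4 and 0 elsewhere. Napsa and Slc34a2 were named after their values were seen. Abca3, the lipid transporter of lamellar bodies, was at 2.00, 10.6, 1.26 and 8.10 in PBS replicates 1 to 4 and at 19.5, 9.68, 1.02, 53.0 and 25.6 in DOX replicates 1 to 5. Its groups overlapped (log2 fold change 1.49, standard error 0.96, limma adjusted p = 0.807; 1.76 and 0.717 without PBS replicate 4). Cd36, a fatty acid receptor that endothelial cells and macrophages also express, was at 123 in PBS replicate 4. It was at 11.6 to 12.99 in PBS replicates 1 to 3 and at 15.8 to 60.0 in DOX. Every DOX library thus lay above PBS replicates 1 to 3, as in 3.38% of tested genes, and below PBS replicate 4. The log2 fold change of Cd36 was 0.45 (limma adjusted p = 0.946), and 1.25 without PBS replicate 4 (limma adjusted p = 0.554). Lpcat1, an acyltransferase that makes surfactant lipid, was at 30.8 in PBS replicate 4, 17.4 in DOX replicate 3 and 0 to 2.05 elsewhere. Of the other untested genes of this list with the highest means, Fasn, the fatty acid synthase, lay between 0.928 and 4.09, and Ctsh, a lysosomal protease that processes surfactant protein B, between 0 and 7.74. Summed over the 17 genes measured, the list was at 176 in PBS replicate 4, 17.7 to 38.0 in PBS replicates 1 to 3 and 39.9 to 92.9 in DOX. Without Cd36 these were 52.7, 4.99 to 26.4 and 24.1 to 61.2, so that PBS replicate 4 then lay within the range of DOX.

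Alveolar type 1 genes gave a lower sum in PBS replicate 4 than in any other library, although 6 of the 12 (Hopx, Aqp5, Emp2, Clic5, Igfbp2 and Gprc5a, with at most 20.3 normalized counts) were highest there, against 16.3% of all genes above 0 in any library. These 6 were picked out after their values were seen. The list of 12 alveolar type 1 genes summed to 126 in PBS replicate 4 and 184 to 290 in the others. It was led by Pdpn, the membrane protein podoplanin, which fibroblasts also make, at 72.1 and 147 to 263. Without Pdpn the sums were 53.5 and 16.3 to 62.5. Vegfa, an endothelial growth factor, was at 3.24 in PBS replicate 4 and 4.64 to 31.0 in the others, and neither gene passed (log2 fold changes 0.38 and 0.34, limma adjusted p = 0.862 and 0.977). PBS replicate 4 was the lowest library for both, and without it the log2 fold changes were 0.05 and -0.19. Among the untested genes, Akap5, an anchoring protein of kinases, was at 0 to 29.7, Cav1, the coat protein of caveolae, at 0 to 5.28, and Gprc5a, an orphan receptor of lung epithelium, at 20.3 in PBS replicate 4 and 0 to 2.05 in the others. The 15 general epithelial genes summed to 67.2 in PBS replicate 4, inside the 52.3 to 110 of the others. In this list Tjp3, a junction scaffold, was at 38.7 to 63.1 and Cldn7, a claudin, at 0 to 29.6, with log2 fold changes of -0.18 and -1.59 (limma adjusted p = 0.965 and 0.853), or -0.28 and -2.27 without PBS replicate 4 (0.880 and 0.670). Of its untested genes, Spint2, a protease inhibitor, was at 1.06 to 14.3, St14, the protease matriptase, at 0 to 17.9, and Ocln, the junction protein occludin, at 0 to 10.8.

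Of 13 airway genes 6 were at 0 in all libraries and 1 passed the filter. Cbr2, a carbonyl reductase of club cells, was at 0.999, 3.17 and 1.26 in PBS replicates 1 to 3, at 59.1 in PBS replicate 4, and at 1.86, 1.94, 9.19, 25.4 and 27.2 in DOX replicates 1 to 5. PBS replicate 4 was its highest library, whereas for Scgb1a1, also of club cells, it was not. Scgb3a1, another secretoglobin, was at 0 in PBS replicates 1 to 3 and at 15.5 and 15.4 in DOX replicates 2 and 5, the same libraries that were highest for Scgb1a1. Aldh1a1, an aldehyde dehydrogenase, was at 0 to 3.87. Tppp3, a tubulin-binding protein of ciliated cells, was the 1 tested gene of the list, with a mean of 18.4 ± 4.17 over the 4 PBS libraries and 11.3 ± 2.29 over the 5 DOX libraries (± SD; log2 fold change -0.65, limma adjusted p = 0.856; -0.75 and 0.788 without PBS replicate 4). Each DOX library of Tppp3 (7.74 to 12.99) lay below each PBS library (14.6 to 22.7). Of all tested genes 3.07% had every DOX library below PBS replicates 1 to 3. The ciliated and basal cell genes Dynlrb2, Krt5 and Trp63 were at 0 in all libraries.

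Summed markers of granulocytes, of immune cells in general and of red blood cells were highest in PBS replicate 4, as were the 8 genes except Scgb1a1. Lymphocyte genes were not. S100a8, a calcium-binding protein of neutrophils, was at 756 there and 0 to 15.3 elsewhere, and all 14 granulocyte genes were above 0 in at least 1 library. The 12 pan-immune genes, led by Cd74, the invariant chain, summed to 370 against 6.50 to 50.2, and the 7 red blood cell genes, led by the globin Hbb-bs, to 81.8 against 0 to 7.17. Endothelial genes, led by Egfl7, summed to 267 against 73.9 to 171. Monocyte and macrophage genes were at 238 against 209 to 297, but without Csf1r, the highest gene of the list, they were at 49.4 against 3.79 to 25.1. Smooth muscle and pericyte genes were at 210 against 87.2 to 217, and without Tagln at 21.9 against 0.999 to 9.22. In both lists PBS replicate 4 was thus the highest library once the leading gene was left out. Mesothelial genes, led by Rspo1, were at 6.48 against 0 to 13.9. Alveolar fibroblast genes were at 267 in PBS replicate 4 against 368 to 486, and without Slc7a10 at 168 against 129 to 286, inside the range of the others. Lymphocyte genes, led by Trac, a T cell receptor chain, were at 19.4 in PBS replicate 4, at 19.0, 6.33 and 25.2 in PBS replicates 1 to 3 and at 27.8, 27.1, 34.7, 65.0 and 54.3 in DOX replicates 1 to 5. As for Sftpc and Sftpb, each DOX library lay above PBS replicates 1 to 3 in this sum, but PBS replicate 4 did not. Without Trac the sums were 19.4 in PBS replicate 4, 2.11 to 17.7 in PBS replicates 1 to 3 and 13.5 to 43.3 in DOX. DOX then overlapped PBS replicates 1 to 3, and PBS replicate 4 lay above them, so that the order rested on Trac. Among the DOX libraries the granulocyte sum was 0 to 28.2 and in PBS replicates 1 to 3 it was 6.33 to 26.0, so that the higher Sftpc and Sftpb of DOX were found at granulocyte sums in the same range. The pan-immune sum was 12.7 to 22.7 in PBS replicates 1 to 3, 6.50 and 15.5 in DOX replicates 1 and 2, and 48.0, 40.3 and 50.2 in DOX replicates 3 to 5, the 3 DOX libraries highest for Sftpc. The part of other cell types in the levels of the 8 genes was not tested.

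**Figure D3:**
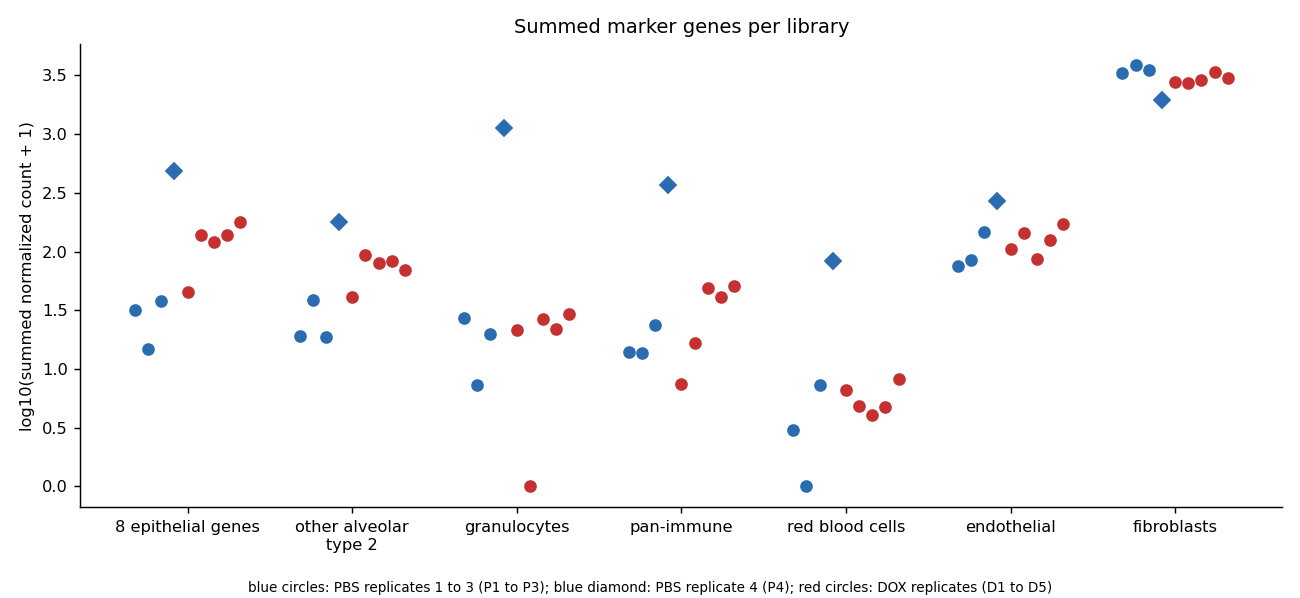
Summed normalized counts of marker lists per library, as log10(sum + 1) on the vertical axis, in replicate order within each list. Blue marks PBS (a diamond for replicate 4), red marks DOX. PBS replicate 4 is highest for the 8 epithelial genes (483), other alveolar type 2 (176), granulocyte (1125), pan-immune (370), red blood cell (81.8) and endothelial genes (267) and lowest for fibroblast genes (1944).

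The tested genes whose profiles lay nearest to that of Sftpc did not include Sftpb or Cldn18, and the other 5 epithelial genes did not pass the filter and were not ranked. Likeness was measured as the root mean square difference of log2(normalized count + 1) after each gene was centred on its mean, over the 9 libraries. Zfp652, a zinc finger factor, was nearest at 0.53, followed by Slc26a10 (0.73), of an anion transporter family, Trpt1 (0.73), which removes a phosphate from tRNA, Bola2 (0.81), of iron-sulfur cluster assembly, and Rab11fip1 (0.81), an effector of endosomal traffic. The median over tested genes was 1.84. Sftpb ranked 17 (1.00) and Cldn18 ranked 557 (1.62) among the other 2603 genes. Zfp652 was at 23.0, 19.0 and 27.8 in PBS replicates 1 to 3, at 325 in PBS replicate 4, and at 34.3, 126, 116, 96.4 and 201 in DOX replicates 1 to 5. Every DOX library of Zfp652 thus lay between PBS replicates 1 to 3 and PBS replicate 4. Because Zfp652 was picked for its likeness to Sftpc over these same libraries, the shared order follows largely from the choice. Its log2 fold change was 1.13 (limma adjusted p = 0.804), and 2.07 without PBS replicate 4 (limma adjusted p = 0.360). For the same reason these values are a description. Bola2 was at 1082 in PBS replicate 4, 29.6 to 35.3 in PBS replicates 1 to 3 and 36.2 to 204 in DOX. Without PBS replicate 4 the 5 nearest were Zfp652 (0.53), Dbp (0.67), 1700060J05Rik (0.72), Carmil1 (0.74) and Rab11fip1 (0.74), so that 2 of the 5 were shared, and Sftpb ranked 40 and Cldn18 1579.

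**Figure D4:**
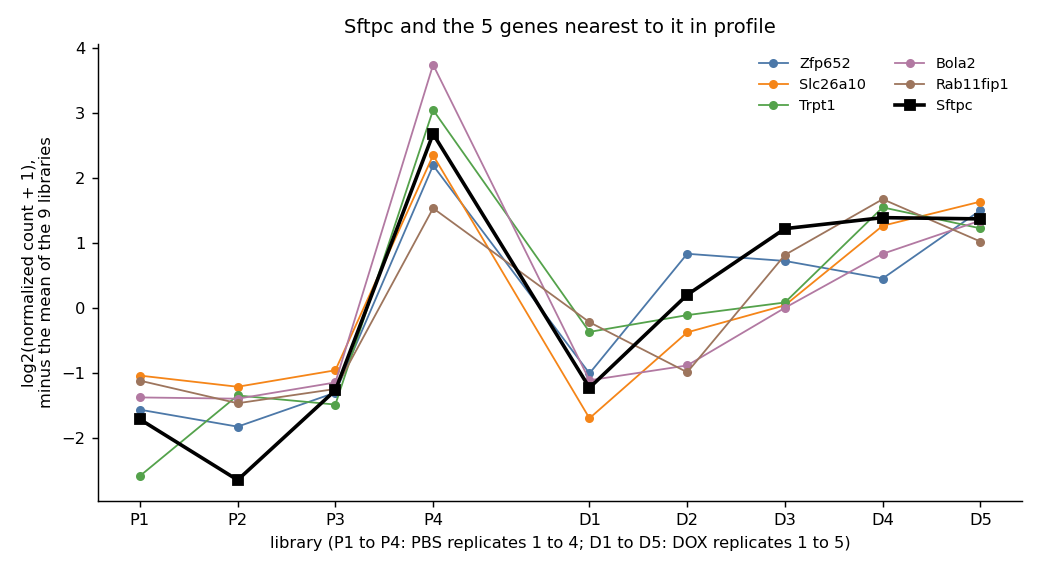
Profiles of Sftpc (black squares) and the 5 tested genes nearest to it (colored circles), as log2(normalized count + 1) minus the gene's mean over 9 libraries, with PBS replicates 1 to 4 (P1 to P4) and DOX replicates 1 to 5 (D1 to D5) along the horizontal axis. All 6 genes are low in PBS replicates 1 to 3, and Sftpc and the 4 nearest are highest in PBS replicate 4, whereas Rab11fip1 is highest in DOX replicate 4.

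Of 8 pairs in which another epithelial gene shares exon bases with a transcript on the opposite strand, the transcript had the higher mean over the 9 libraries in 5 and the epithelial gene in 3 (Tjp3, Napsa and Rtkn2). In 9 such pairs of the genes nearest in profile to Sftpc, the partner had the higher mean in 2 and the gene in 7. MARS-seq keeps the strand of the tag, but the strand setting of the count is not given in the sources used here. Which strand the reads under either name come from was not tested, nor was any effect on the values of the 8 genes. The 3 pairs described here were chosen after their values were seen. Hopxos shares 412 exon bases with Hopx, the homeodomain gene of alveolar type 1 cells (chromosome 5, 77086988 to 77115121, minus strand). It was at 24.97, 22.2 and 3.79 in PBS replicates 1 to 3, at 87.5 in PBS replicate 4 and at 0.928, 87.1, 28.6, 62.0 and 73.3 in DOX replicates 1 to 5, whereas Hopx was at 0 to 4.86. DOX libraries 2 to 5 lay above PBS replicates 1 to 3, DOX replicate 1 below them (log2 fold change 0.41, limma adjusted p = 0.977; 1.07 and 0.852 without PBS replicate 4). Wbscr25, which shares 40 exon bases with the claudin gene Cldn3, was at 109 in PBS replicate 4, 2.11 to 10.99 in PBS replicates 1 to 3 and 1.94 to 27.2 in DOX, with Cldn3 at 0 to 1.62. D330041H03Rik, which shares 914 exon bases with Abca3, was at 1350 in PBS replicate 4, 449 to 644 in PBS replicates 1 to 3 and 442 to 656 in DOX, so that it was high in PBS replicate 4 while DOX overlapped PBS replicates 1 to 3. Over the 8 pairs, the partner was highest in PBS replicate 4 in 5, against 16.3% of all genes above 0 in any library. Gm16212, the partner of Rtkn2 and 1 of these 5, was at only 0.810 there and at 0 elsewhere. Among the 8 genes themselves, Cldn18 is overlapped by Gm16004, which shares no exon bases with it and was at 0 in all libraries.

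**Figure D5:**
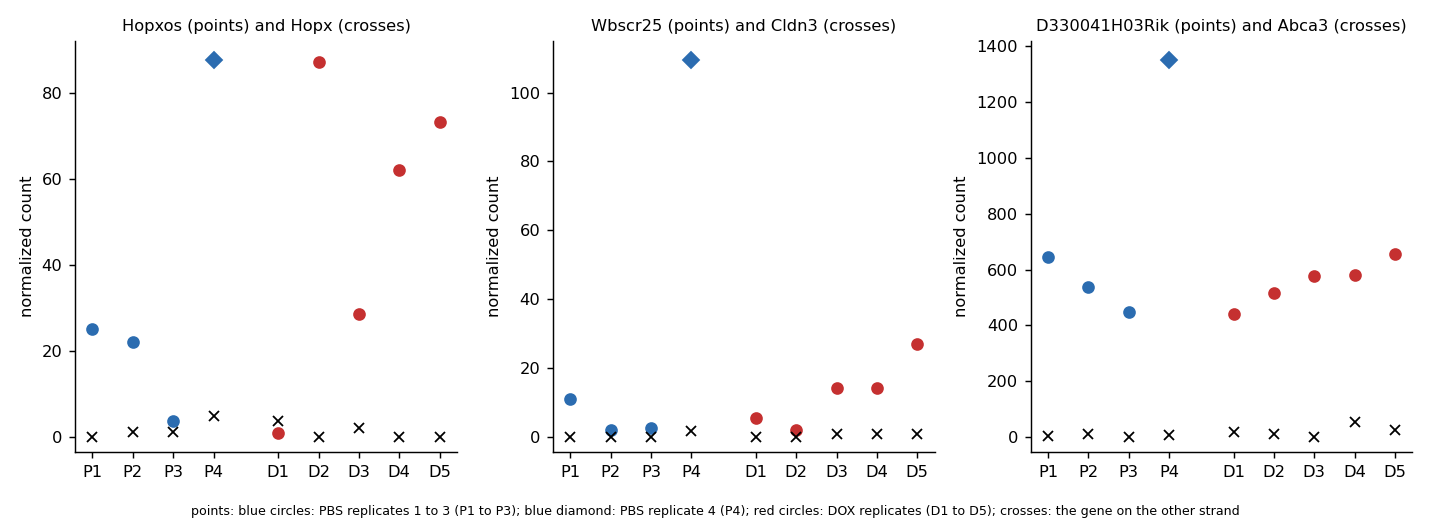
Normalized counts (linear axis, own range for each panel) of Hopxos, Wbscr25 and D330041H03Rik by library, blue for PBS (a diamond for replicate 4) and red for DOX. Black crosses are Hopx, Cldn3 and Abca3 on the other strand, and the partners reach 87.5, 109 and 1350 in PBS replicate 4, where the crosses are at 4.86, 1.62 and 8.10.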

How the data were processed

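RNA of sorted lung fibroblasts was profiled by MARS-seq, a 3′ tag method. The authors mapped reads with STAR to mm10, counted them with HTSeq-count and deposited a normalized signal, the count divided by a library size factor, in 1 table per library (55421 lines, 55302 symbols; 119 repeated symbols were summed). No source used here gives their versions. In each library 100% of values were whole multiples of 1 step (tolerance 1e-06), which gave the reads, 432322 to 1285816 per library; whether molecular tags were collapsed is not given. Groups followed the labels.

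The 8 genes and all lists were chosen with earlier results of these data known. Under R 4.3.3, limma 3.58.1 with a trend of variance on mean was fitted to log2(value + 1) of the 2604 genes with 4 or more libraries at 10 or above, two-sided, Benjamini-Hochberg adjusted; it was tested on simulated data. The p-values set the difference between DOX and PBS means against the spread between these samples, moderated over genes. A fold change on this scale understates low genes. Alternatives were edgeR 4.0.16 and DESeq2 1.42.0 on recovered reads, pseudocounts, filters, TMM, a replicate block and each library left out. Replicate numbers were checked for pairing and were not taken as pairs. The chi-square per degree of freedom between libraries of a group was 8.51 to 41.4, so that none was deposited again.

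Named genes were the 8 genes, every tested gene of 4 lists of other epithelial genes and the 3 highest untested ones of each, the highest gene of each other marker list, overlapping or nearest genes, and the 5 nearest in profile to Sftpc; further names were picked with values in view, as the text says, or are listed at 0. Coordinates are from GENCODE M21 (mm10). Python 3.11.15 was used for the descriptions.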

Additional observations from a re-analysis of the deposited data

Results flagged for a closer look

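Of 62 groups of 4 or 5 libraries examined for a library far from the others by Dixon's criterion, 19 had one, and 15 of these were PBS replicate 4. Chance flags about 1 in 20 groups, and the values of one library are not independent of each other. That rate does not apply to the 8 epithelial genes, which were chosen with their levels in PBS replicate 4 known, so that their values here are a description. Among them, PBS replicate 4 stood apart for Sftpc (210 normalized counts), Sftpb (126), Sftpa1 (17.8), Sftpd (3.24), Cldn18 (70.5), Ager (44.6) and Epcam (5.67), and for their sum (483). Scgb1a1 was the exception, at 5.67 in that library. For Sftpd and Epcam the other PBS libraries were at 0, so that the gap rests on 4 and 7 reads.

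In the same library Cd36 was high at 123 and Pdpn low at 72.1, where the other PBS libraries lay between 172 and 189. The sums of other alveolar type 2 genes (176), airway genes (85.1), granulocyte genes (1125), pan-immune genes (370) and red blood cell genes (81.8) also stood above those of the other PBS libraries. Among the DOX libraries, replicate 5 stood apart for Sftpa1 (11.8), replicate 4 for Sftpd (2.99) and Epcam (3.73), and replicate 2 for the granulocyte sum, which was 0 there.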

How the results depend on the processing

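The log2 ratio of the DOX mean to the PBS mean of the 8 summed genes was -0.19 with all libraries. It ranged from -0.57 to 2.19 when each library was left out, was 2.19 without PBS replicate 4 and 0.02 without DOX replicate 1, and was 2.14 without PBS replicate 4 and DOX replicate 2, a choice made after seeing the data. With reads as a share of the library total, in place of size factors, it was -0.37 and, with the ribosomal RNA gene left out of that total, -0.17. By log2 fold change, Sftpc and Sftpb were above 0 in 14 of 16 alternatives each. The exceptions were edgeR (-0.02 and -0.45) and DESeq2 (-0.002 and -0.41). Scgb1a1 stayed above 0 in 15 of 15. The sign turned in 8 of 16 for Cldn18, in 6 of 15 for Sftpa1, Sftpd and Epcam each, and in 4 of 15 for Ager. All 123 of these values stayed within 1 SD of the replicates, but that spread was wide. The values ran from -0.45 to 3.07 for Sftpb and from -0.02 to 2.57 for Sftpc, so that this limit does not show them to be stable.

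With no filter 3 of 17428 genes passed between DOX and PBS, CT010467.1, Gm17300 and Gm20721, against 0 of 2604 with the filter (162 at an unadjusted p under 0.05). In the other alternatives 0 passed. The median log2 fold change of the other epithelial genes was -0.18 with edgeR, -0.24 with DESeq2, -0.19 without PBS replicate 4 and -0.22 without that library and DOX replicate 2, and from 0.01 to 0.38 in the remaining alternatives. The median Sftpb share was 24.8% and 23.5 to 25.4% with each library left out. Same-numbered libraries correlated at 0.01 to 0.07 in their deviations, so that the numbers were not taken as pairs, and with the replicate number as a block, without DOX replicate 5, 0 of 2450 genes passed, 0 of the 5 other epithelial genes tested passed and their median was 0.24. Depth limits Sftpd and Epcam most, with 9 and 14 reads over all libraries, and no difference between DOX and PBS was detectable for them.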

Other observations

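Genes of surfactant processing and lamellar bodies were described as a further group. Of 15 listed genes, 4 passed the filter on low values, Abca3, Ctsb and Acsl4 with a higher fitted mean in DOX and Lamp1 with a lower one, and 0 passed the test (limma, lowest adjusted p = 0.807; median log2 fold change 0.23). Acsl4, a ligase that activates long-chain fatty acids, averaged 19.5 ± 4.83 over the 4 PBS libraries and 24.8 ± 11.5 over the 5 DOX libraries (± SD). Ctsb, the lysosomal protease cathepsin B, was at 15.0 ± 6.35 and 18.9 ± 11.2 in the same groups, and Lamp1, a lysosomal membrane protein, at 22.8 ± 9.41 and 24.6 ± 21.6. The linear mean of Lamp1 was thus higher in DOX while its fitted mean on the log2 scale was lower. Summed over the list, PBS replicate 4 was at 98.8 and the other libraries at 67.6 to 121. Acsl4, Ctsb and Lamp1 were named after their values were seen.

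The genes nearest in profile to Sftpc also share exon bases with genes on the other strand, a comparison made after the values were seen. Zfp652 shares 2913 exon bases with Abi3, an actin regulator of blood cells, which was at 169 in PBS replicate 4, 66.5 to 83.9 in PBS replicates 1 to 3 and 55.7 to 196 in DOX. Bola2 shares 26 with Coro1a, an actin-binding protein of leukocytes, at 45.4 in PBS replicate 4, 0 in PBS replicates 1 to 3 and 0.747 to 5.11 in DOX. Trpt1 shares 89 with Fermt3, an integrin adaptor of blood cells, at 55.1 in PBS replicate 4, 26.4 to 44.2 in PBS replicates 1 to 3 and 58.1 to 83.5 in DOX. These 3 pairs were picked with values in view, and other partners ran another way. Sphk2, the partner of Dbp, averaged 4129 in PBS replicates 1 to 3 and 2406 in DOX, and was at 1915 in PBS replicate 4. Slc44a1, the partner of 1700060J05Rik, averaged 9.70 and 1.70 in the same groups and was at 4.86 in PBS replicate 4. Of 9 such pairs, the partner was highest in PBS replicate 4 in 4, against 16.3% of all genes above 0 in any library. Which strand these reads come from was not tested.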
